A study of Mus musculus with 23 samples.

Results

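Conventional dendritic cells and macrophages are related phagocytes, and many genes that mark dendritic cells are also read by macrophages at lower levels. Conventional dendritic cells depend on the cytokine receptor Flt3, are usually divided into cDC1 cells, which need Irf8 and Batf3 and present antigen to cytotoxic T cells, and cDC2 cells, in which Irf4 has the larger part, and raise the chemokine receptor Ccr7 when they mature and move to lymph nodes. Monocytes that enter inflamed or tumour tissue can also take on genes of this kind, Itgax and Cd209a among them. The genes described here are 10 such genes, Flt3, Ccr7, Xcr1, Clec9a, Cd209a, Itgax, Zbtb46, Irf4, Irf8 and Batf3, chosen by name, out of 36793 genes in the deposited count tables. They were chosen with earlier results of these data known, so their counts beside the share of all genes are a description and not a test. All 10 were found in the tables, and all 10 passed the filter on low counts in every fit.

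The libraries are RNA sequencing of mouse cells from 3 head and neck tumour models that grow under the skin. HPV-positive MEER and HPV-negative MEER cells are epithelial tumour lines grown in C57/Bl6 mice, and SCCVII is a squamous carcinoma line grown in C3H/HeJ mice, so tumour model and mouse strain cannot be told apart for SCCVII. Colony libraries (3 from HPV-negative MEER and 2 from SCCVII) came from sorted macrophages that were cultured for 9 days in haematopoietic stem cell medium, macrophage libraries (3 each from HPV-positive MEER, SCCVII and HPV-negative MEER) came from CD45+CD11b+Gr1-F4/80hi cells, each pooled from 3 to 4 mice, and tumour line libraries (3 each) were aliquots of cultured cells. Each model rests on 1 line, and the libraries of a line are aliquots of it. The p-values for macrophages against lines rest on the spread between macrophage pools and between aliquots, and not on any spread between lines.

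The libraries held 26848759 to 47609481 expected counts, so that 1 CPM, the unit of counts relative to the library's total, stood for 26.8 to 47.6 counts, and 3 counts, taken as the floor of detection, came to 0.0546 to 0.138 CPM. Levels are CPM scaled by the trimmed mean of M values (TMM). In the macrophage libraries Ptprc, the gene of the sort marker CD45, stood at 482 to 979 CPM. The macrophage receptor Csf1r, which was not a sort marker, stood at 2480 to 3555 CPM. The colony libraries did not resemble each other. Ptprc stood at 149, 2.72 and 0.392 CPM in the 3 HPV-negative MEER colonies and at 113 and 3.78 CPM in the 2 SCCVII colonies, and at most at 1.3 CPM in the tumour lines. Col1a1, a collagen gene, stood at 195 to 592 CPM in the colonies and at 4.3 to 30.2 CPM in the macrophages. Among the macrophages, HPV-positive library 2 and HPV-negative library 4 stood apart in some of the genes described here. Some changes of HPV-positive over HPV-negative are also given without 1 or the other of them.

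The lectin gene Clec9a overlaps Clec1b on the same strand in the annotation, and its counts were not whole in 8 of 23 libraries. The counts of Itgax were not whole in 11 of 23 libraries. In these genes some reads were divided between genes, so their values are uncertain. The counts of the other 8 were whole in all 23 libraries, but Zbtb46 and Irf8 also overlap a gene on the same strand (Gm22708 and Gm20388). On GRCm38, in the GENCODE M21 annotation, Itgax lies at chr7:128129547-128150657 on the plus strand, Zbtb46 at chr2:181387762-181459426 on the minus strand, and Ccr7 at chr11:99144196-99155077 on the minus strand. The other genes lie on chromosomes 5 (Flt3), 9 (Xcr1), 6 (Clec9a), 8 (Cd209a and Irf8), 13 (Irf4) and 1 (Batf3).

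Batf3 forms dimers that bind AP-1 elements, and Irf4 and Irf8 bind composite elements together with the ETS factor PU.1, so promoters of the 10 genes were searched on both strands for 4 motifs, AP-1 (TGANTCA, which reads alike on both strands apart from its N), ETS-IRF (GGAA and GAAA with 2 bases of any kind between them), IRF (GAAA and GAAA with 2 such bases between them) and PU.1 (GAGGAAGT). RefSeq windows on GRCm38.p6, from 250 bases before to 50 bases after the start, were matched for 9 genes (10 windows, with 2 for Irf8). For Zbtb46 the RefSeq start lies inside the GENCODE gene and not at its 5′ end, so its window is that of an internal start. The AP-1 letters were found in the windows of Zbtb46, 61 bases before that internal start, and Itgax, 56 bases before its start. They occur in 7.81% of all 32851 promoter windows. The ETS-IRF letters were found in the Cd209a window, on the opposite strand 9 bases before the start, and in 2.72% of all windows. The IRF letters (3.44% of all windows) and the PU.1 letters (3.2%) were not in the windows of these genes. Any part of these letters in the levels of the genes was not tested. The 3 windows with a match are given 5′ to 3′ on the gene's own strand with the matched letters in capitals. They are Zbtb46 at chr2:181424339-181424638, Itgax at chr7:128129300-128129599 and Cd209a at chr8:3748935-3749234.
Zbtb46: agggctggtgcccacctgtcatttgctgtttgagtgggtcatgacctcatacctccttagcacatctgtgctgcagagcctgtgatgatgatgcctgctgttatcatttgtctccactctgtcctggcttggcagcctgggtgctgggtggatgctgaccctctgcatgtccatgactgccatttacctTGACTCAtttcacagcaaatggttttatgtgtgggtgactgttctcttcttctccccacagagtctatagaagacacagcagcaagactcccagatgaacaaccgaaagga
Itgax: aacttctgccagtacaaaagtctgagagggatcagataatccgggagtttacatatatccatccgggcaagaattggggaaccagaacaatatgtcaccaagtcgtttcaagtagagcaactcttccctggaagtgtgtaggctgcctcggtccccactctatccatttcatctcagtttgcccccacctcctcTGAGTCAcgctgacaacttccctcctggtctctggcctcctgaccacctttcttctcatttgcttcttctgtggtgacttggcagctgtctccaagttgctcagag
Cd209a: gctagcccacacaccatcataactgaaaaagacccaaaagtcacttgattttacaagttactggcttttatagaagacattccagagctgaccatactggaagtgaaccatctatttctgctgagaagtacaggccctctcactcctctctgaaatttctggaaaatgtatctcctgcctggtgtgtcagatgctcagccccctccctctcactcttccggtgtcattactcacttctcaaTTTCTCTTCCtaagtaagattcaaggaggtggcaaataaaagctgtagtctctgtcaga

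In macrophages of HPV-positive MEER tumours 8 of the 10 genes were higher than in macrophages of HPV-negative MEER tumours, by 0.97 to 4.20 on the log2 scale, and none was lower. In that comparison 22.8% of all 14085 genes tested were called higher, 25.9% lower and 48.7% in either direction (edgeR quasi-likelihood test, Benjamini-Hochberg adjusted p under 0.05). The median log2 change of the 10 genes was 2.5, against -0.05 for all genes tested. Zbtb46 and Xcr1 did not pass the test. Macrophages of SCCVII tumours gave a mixed picture against HPV-negative MEER, with 1 gene, Irf4, higher and 3, Ccr7, Itgax and Batf3, lower, where 18.7% of all genes were called higher, 20.5% lower and 39.2% in either direction. Against HPV-positive MEER, SCCVII macrophages had 8 of the 10 genes lower and none higher, where 32.2% of all genes were called higher, 30.9% lower and 63.2% in either direction. The 3 comparisons share libraries, so they are not independent of each other. In these sorted bulk samples, fewer cells of a type and less RNA per cell cannot be told apart.

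**Figure D1:**
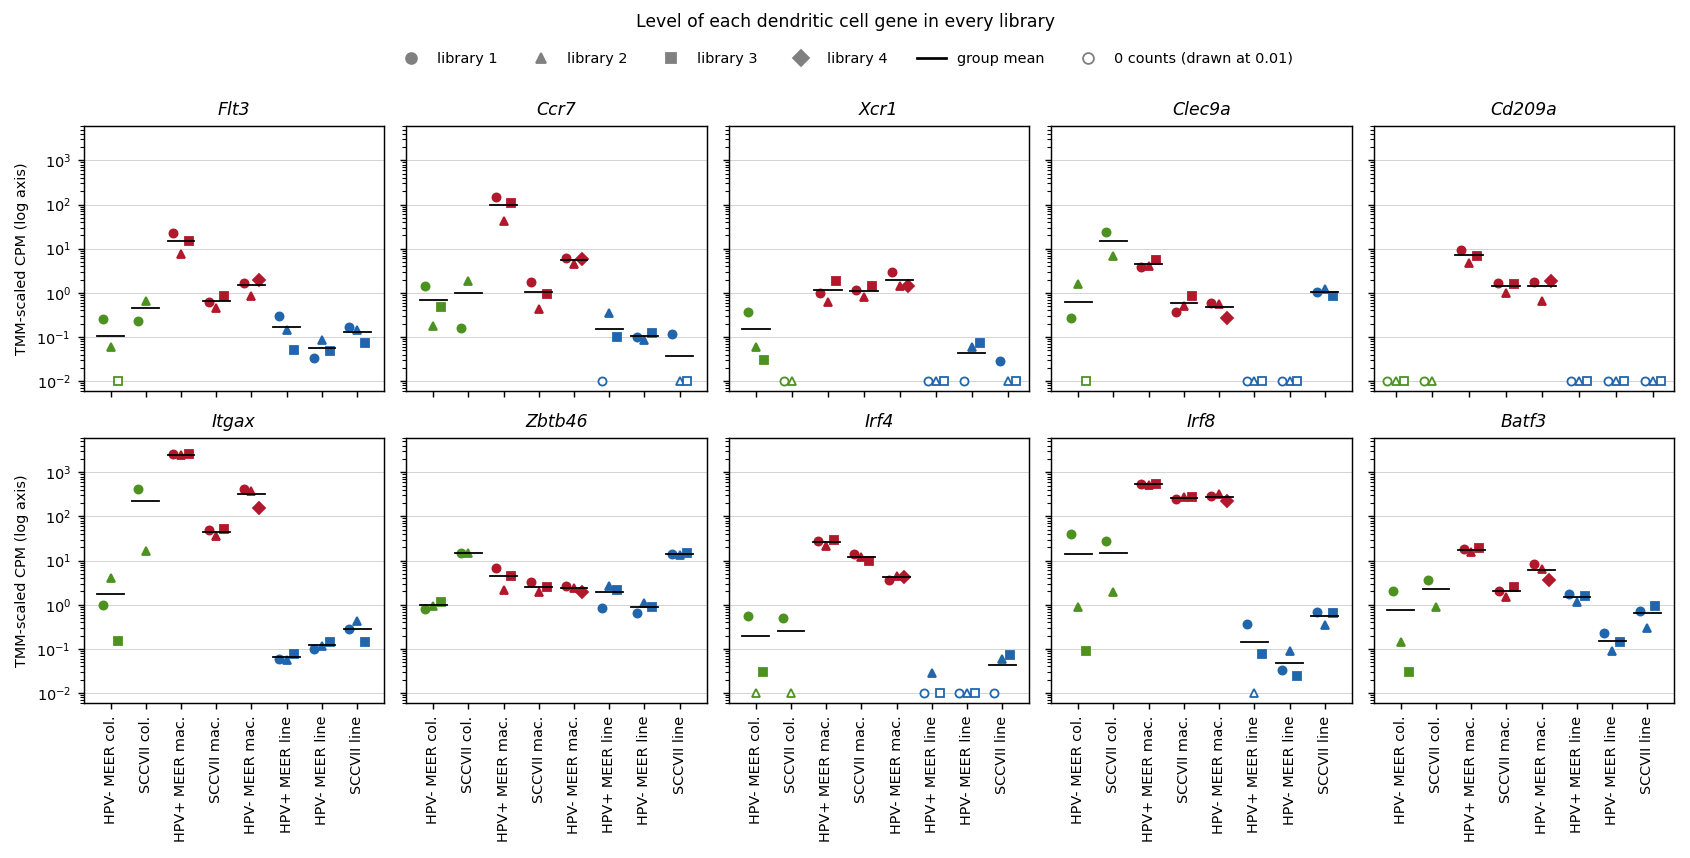
TMM-scaled CPM (log axis) of each of the 10 genes in all 23 libraries, by group (col., colony; mac., macrophages); points are libraries, bars are group means and open points are libraries with 0 counts. Itgax lies at 2480 to 2546 CPM in HPV-positive MEER macrophages, against 157 to 424 CPM in the HPV-negative ones. Zbtb46 is highest in the SCCVII colonies and the SCCVII line.

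Flt3, the receptor of the growth factor on which conventional dendritic cells depend, had 23.2, 7.76 and 14.9 CPM in HPV-positive macrophages, 0.616, 0.463 and 0.853 CPM in SCCVII macrophages, and 1.68, 0.841 and 1.94 CPM in HPV-negative macrophages (libraries 1, 2 and 4 of the last). Every HPV-positive library lay above every other macrophage library, while SCCVII and HPV-negative libraries overlapped. The log2 change was 3.37 ± 0.44 (SE, edgeR adjusted p = 0.00024) for HPV-positive over HPV-negative, and -1.23 ± 0.48 (edgeR adjusted p = 0.071) for SCCVII over HPV-negative. The second passed by DESeq2, at -1.22 (adjusted p = 0.026), and in 3 of 9 fits that left out 1 library.

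Ccr7, the receptor that guides mature dendritic cells to lymph nodes, had 151, 41.6 and 106 CPM in HPV-positive macrophages, 1.75, 0.43 and 0.921 CPM in SCCVII macrophages, and 6.12, 4.39 and 5.91 CPM in HPV-negative macrophages. The 3 groups did not overlap, and HPV-positive library 2 lay far below the other HPV-positive libraries. Ccr7 was 4.20 ± 0.47 higher on the log2 scale in HPV-positive than in HPV-negative macrophages (edgeR adjusted p = 8.7e-05), and SCCVII over HPV-negative macrophages gave -2.43 ± 0.62 (edgeR adjusted p = 0.012). Ccl19 and Ccl21a, the genes of its ligands, were at or near 0 in all macrophages, with group means of at most 0.0131 and 0.176 CPM.

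Xcr1, the chemokine receptor that marks cDC1 cells, went another way. It had 1.01, 0.607 and 1.88 CPM in HPV-positive macrophages, 1.13, 0.793 and 1.43 CPM in SCCVII macrophages, and 2.92, 1.4 and 1.46 CPM in HPV-negative macrophages. The groups overlapped. The log2 change was -0.69 ± 0.46 for HPV-positive over HPV-negative (edgeR adjusted p = 0.25) and -0.80 ± 0.46 for SCCVII over HPV-negative (edgeR adjusted p = 0.20).

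Clec9a, a receptor for dead cell material that also marks cDC1 cells, had 3.78, 3.95 and 5.49 CPM in HPV-positive macrophages, 0.377, 0.496 and 0.853 CPM in SCCVII macrophages, and 0.583, 0.561 and 0.269 CPM in HPV-negative macrophages. The HPV-positive libraries were alone at the higher level. The log2 change was 3.24 ± 0.40 for HPV-positive over HPV-negative (edgeR adjusted p = 0.00016) and 0.27 ± 0.41 for SCCVII over HPV-negative (edgeR adjusted p = 0.64).

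Cd209a, a C-type lectin of cDC2 and monocyte-derived dendritic cells, had 9.4, 4.81 and 6.9 CPM in HPV-positive macrophages, 1.64, 0.992 and 1.6 CPM in SCCVII macrophages, and 1.78, 0.654 and 1.85 CPM in HPV-negative macrophages. It was 2.32 ± 0.42 higher on the log2 scale in HPV-positive than in HPV-negative macrophages, without overlap (edgeR adjusted p = 0.0015). SCCVII and HPV-negative macrophages overlapped, with a log2 change of -0.04 ± 0.42 (edgeR adjusted p = 0.95).

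Itgax, which encodes the integrin chain CD11c, had the highest level of the 10 in HPV-positive macrophages. It had 2533, 2480 and 2546 CPM in HPV-positive macrophages, 49.9, 35.6 and 50.8 CPM in SCCVII macrophages, and 424, 374 and 157 CPM in HPV-negative macrophages. The 3 groups did not overlap, the HPV-positive libraries lay close together, and HPV-negative library 4 was the lowest of its group. The log2 change was 3.01 ± 0.32 for HPV-positive over HPV-negative (edgeR adjusted p = 6.6e-05), -2.83 ± 0.32 for SCCVII over HPV-negative (0.00014) and -5.84 ± 0.37 for SCCVII over HPV-positive (9.2e-07), all edgeR adjusted p-values. Without HPV-negative library 4 the first of these was 2.69. Itgam, the gene of the sort marker CD11b, was lower in HPV-positive than in HPV-negative macrophages, at 1222 against 2042 CPM (log2 change -0.72 ± 0.08, edgeR adjusted p = 6.3e-05).

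Zbtb46, a transcription factor of conventional dendritic cells that monocytes and macrophages largely lack, had 6.77, 2.17 and 4.47 CPM in HPV-positive macrophages, 3.22, 1.95 and 2.49 CPM in SCCVII macrophages, and 2.69, 2.43 and 1.91 CPM in HPV-negative macrophages. Libraries 1 and 3 of the HPV-positive group were above all others, and library 2 lay within the range of the HPV-negative group. The log2 change of HPV-positive over HPV-negative was 0.95 ± 0.38 (edgeR adjusted p = 0.063). It was 1.28 without HPV-positive library 2 (edgeR adjusted p = 0.0084), and it also passed by DESeq2, at 0.99. SCCVII over HPV-negative macrophages gave 0.11 ± 0.38 (edgeR adjusted p = 0.85).

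Irf4, a factor of cDC2 cells and of alternatively activated macrophages, had 28.3, 21.7 and 29.6 CPM in HPV-positive macrophages, 13.8, 12.3 and 10 CPM in SCCVII macrophages, and 3.73, 4.48 and 4.3 CPM in HPV-negative macrophages. It was the only one of the 10 genes that passed the test as higher in SCCVII than in HPV-negative macrophages, by 1.51 ± 0.16 on the log2 scale (edgeR adjusted p = 9e-05). HPV-positive over HPV-negative macrophages gave 2.69 ± 0.16 (edgeR adjusted p = 2.5e-06), and SCCVII over HPV-positive gave -1.18 ± 0.15 (edgeR adjusted p = 9.4e-05). The 3 groups did not overlap.

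Irf8, which macrophages and cDC1 cells both use, had 552, 519 and 538 CPM in HPV-positive macrophages, 248, 277 and 278 CPM in SCCVII macrophages, and 296, 320 and 220 CPM in HPV-negative macrophages. The HPV-positive libraries lay above the rest, by 0.97 ± 0.12 on the log2 scale over HPV-negative (edgeR adjusted p = 0.00015). SCCVII over HPV-negative macrophages gave -0.08 ± 0.12 (edgeR adjusted p = 0.65).

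Batf3, the AP-1 type factor of cDC1 cells, had 18.3, 15.3 and 19.3 CPM in HPV-positive macrophages, 2.05, 1.49 and 2.56 CPM in SCCVII macrophages, and 8.23, 6.48 and 3.64 CPM in HPV-negative macrophages. The 3 groups did not overlap. The log2 change was 1.55 ± 0.28 for HPV-positive over HPV-negative (edgeR adjusted p = 0.0015), -1.60 ± 0.30 for SCCVII over HPV-negative (0.0023) and -3.16 ± 0.30 for SCCVII over HPV-positive (1.4e-05), all edgeR adjusted p-values. In a fit over all 23 libraries, whose common spread includes the colonies, the calls of Batf3 and Irf8 for HPV-positive over HPV-negative were lost (adjusted p = 0.17 and 0.60) at log2 changes of 1.53 and 0.95. Those of Batf3 (-1.59, adjusted p = 0.19) and Irf4 (1.53, 0.17) for SCCVII over HPV-negative and of Irf4 (-1.14, 0.22) and Irf8 (-1.0, 0.51) for SCCVII over HPV-positive were lost too. Without HPV-negative library 4 the 8 genes called higher in HPV-positive than in HPV-negative macrophages kept their calls, with log2 changes of 1.29 for Batf3, 0.83 for Irf8 and 2.97 for Clec9a, and Irf8 also passed as lower in SCCVII than in HPV-negative macrophages (-0.21, adjusted p = 0.025).

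**Figure D2:**
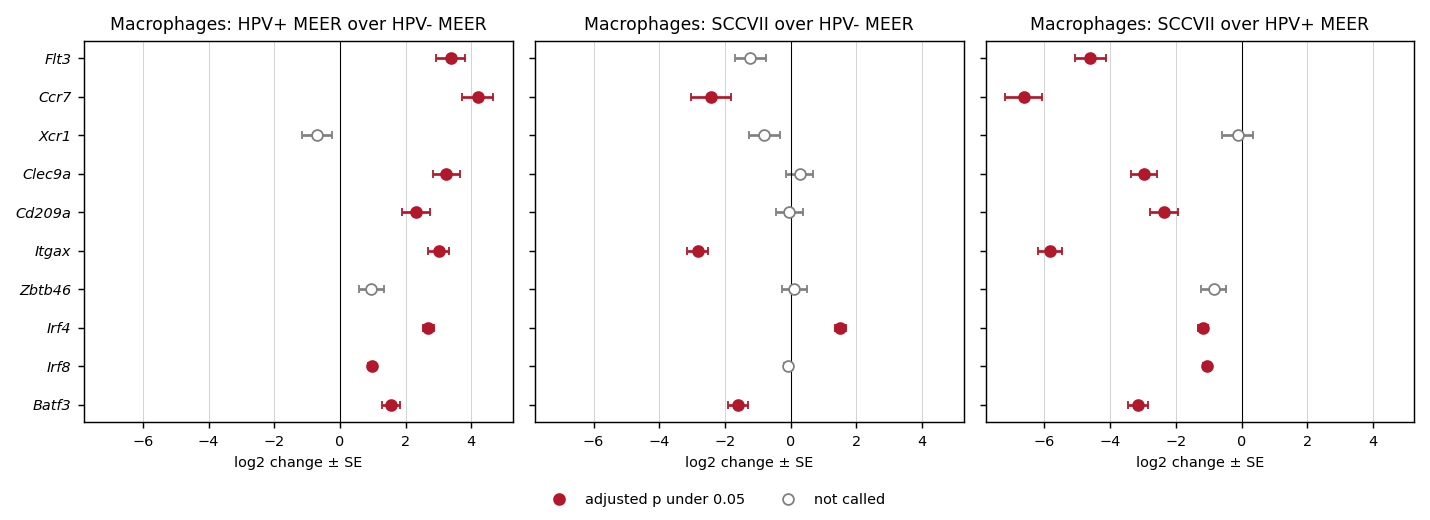
Log2 change with its standard error (edgeR) of the 10 genes in the 3 comparisons between macrophage groups; filled points passed at an adjusted p under 0.05. The filled points lie to the right of 0 for 8 genes in HPV-positive over HPV-negative MEER, and only Irf4 does so in SCCVII over HPV-negative MEER.

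Levels per transcript length, in the authors' TPM (a transcript's share of its library after division by length), allow the genes to be ranked within a group. In HPV-positive macrophages Itgax led with 818 ± 10.6 TPM, followed by Irf8 at 286 ± 11.9 and Ccr7 at 67.3 ± 36.9 TPM (SD, n = 3). Batf3 followed at 35.6 ± 4.22 TPM, below the mean of Ccr7 but within its range. In SCCVII macrophages Irf8 led with 164 ± 2.22 TPM and Itgax followed at 17.9 ± 3.52 TPM. In HPV-negative macrophages Irf8, at 166 ± 18.5 TPM, and Itgax, at 122 ± 50.4 TPM, overlapped. At the other end, Xcr1 had 0.347 ± 0.194 TPM, the lowest of the 10 in HPV-positive macrophages. Flt3 (0.283 ± 0.085 TPM) and Clec9a (0.303 ± 0.0902 TPM) had the lowest means in SCCVII and HPV-negative macrophages, respectively. There the range of their libraries overlapped with that of the next gene (Clec9a at 0.327 ± 0.195 TPM in SCCVII, Flt3 at 0.647 ± 0.274 TPM in HPV-negative).

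Other genes of dendritic cells were read from lists of 13 genes shared by conventional dendritic cells, 20 genes of mature or migratory dendritic cells, 10 of cDC1 cells and 9 of cDC2 or monocyte-derived dendritic cells. The lists, too, were chosen with earlier results of these data known, so their counts are no test of a list. In HPV-positive against HPV-negative macrophages, where 22.8% of all genes rose and 25.9% fell, 12 of the 13 shared genes rose and none fell, with a median log2 change of 2.08. Among them Dpp4, a surface peptidase, had 47.5 against 3.18 CPM (3.93 ± 0.31, edgeR adjusted p = 1.1e-05), and Runx3, a transcription factor, had 511 against 205 CPM (1.34 ± 0.18, edgeR adjusted p = 0.00023). Of the 20 mature dendritic cell genes 17 rose and 1 fell, with a median of 2.35. The chemokine Ccl17 had 66.1 against 1.24 CPM (5.75 ± 0.41, edgeR adjusted p = 6.8e-06), the surface protein Cd83 had 439 against 72.2 CPM (2.63 ± 0.25, 3e-05), and Marcksl1 was the gene that fell, at 92.7 against 258 CPM (-1.45 ± 0.15, 5.3e-05).

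The subset genes were less uniform, and their counts stand against the same 22.8% and 25.9% of all genes. Of 9 cDC1 genes tested 5 rose and 1 fell, with a median log2 change of 0.44: Itgae, the gene of CD103, had 14.3 against 1.36 CPM (3.41 ± 0.38, edgeR adjusted p = 8.2e-05), and Tlr3, a receptor for double-stranded RNA, fell to 16.7 CPM, against 25.5 CPM in HPV-negative macrophages (-0.58 ± 0.15, 0.0092). Of 7 cDC2 genes tested 3 rose and none fell, with a median of 0.90, and the lectin gene Mgl2 had 791 against 106 CPM (2.93 ± 0.38, edgeR adjusted p = 0.00020). Of 5 plasmacytoid dendritic cell genes tested 2 rose and 1 fell, with a median of -0.24, and Siglech, which defines that cell, stood at 0.101 and 0.134 CPM in HPV-positive and HPV-negative macrophages. In SCCVII against HPV-negative macrophages 3 of the 13 shared genes rose and 7 fell (median -0.90), and 3 of the 20 mature genes rose and 12 fell (median -1.21), where 18.7% of all genes rose and 20.5% fell. Among the mature genes that fell was Socs2, an inhibitor of cytokine signalling, at 0.948 against 22.8 CPM (-4.60 ± 0.18, edgeR adjusted p = 1.4e-07).

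Markers of other cells moved with these genes in part. Their counts are to be read against all genes tested. For HPV-positive over HPV-negative macrophages 22.8% of all genes were called higher and 25.9% lower. In SCCVII over HPV-negative macrophages 18.7% were called higher and 20.5% were called lower. Of 12 macrophage identity genes 3 rose and 6 fell in HPV-positive against HPV-negative macrophages, with a median log2 change of -0.27 and a summed level of 13030 to 14420 against 18433 to 23176 CPM. Adgre1, the gene of F4/80, stood at 515 against 829 CPM (-0.66 ± 0.14, edgeR adjusted p = 0.0036), and Csf1r at 2919 against 3069 CPM (-0.05 ± 0.11, 0.75). None of 10 T cell genes passed the test, and their summed level was 44.3 to 71.4 CPM in HPV-positive and 43.2 to 74.7 CPM in HPV-negative macrophages, with none at 0. In SCCVII macrophages the T cell genes summed to 7.5 to 21.5 CPM, and 6 of the 10 were lower than in HPV-negative macrophages. Of 7 natural killer cell genes 3 rose and none fell in HPV-positive against HPV-negative macrophages, with a median log2 change of 0.00 and summed levels of 35.4 to 69.7 against 14.7 to 27.1 CPM, without overlap. The cultured HPV-positive line itself had 38.2 to 63.4 CPM of these genes, nearly all of it from Eomes alone (38.1 to 63.4 CPM). In SCCVII macrophages they summed to 0.893 to 2.25 CPM, and 5 of the 7 were lower than in HPV-negative macrophages (median -3.28). Of 7 monocyte genes 4 rose and 2 fell in HPV-positive against HPV-negative macrophages, with summed levels of 623 to 716 against 1388 to 1500 CPM. The 8 fibroblast and endothelial genes summed to 159 to 184 against 41.5 to 91.1 CPM, although 1 rose and 2 fell of the 7 tested (median log2 change -1.31). The 6 epithelial genes summed to 425 to 554 against 75.3 to 145 CPM, most of it the adhesion gene Cdh1 at 443 against 53.9 CPM. In the cultured HPV-positive line Cdh1 stood at only 23.9 CPM, where the 6 genes summed to 1349 to 1730 CPM. The part of these cells in the levels of the 10 genes was not tested.

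HPV-positive library 2 differed from the other HPV-positive libraries in some of the 10 genes and not in others, a pattern that was looked for after the values had been seen. Ccr7 stood in it at 32.4% of the mean of libraries 1 and 3, Zbtb46 at 38.6%, Flt3 at 40.8%, Xcr1 at 41.9% and Cd209a at 59.1%. Irf4 stood at 75%, Batf3 at 81.1%, Clec9a at 85.1%, Irf8 at 95.2% and Itgax at 97.6%. Thus 5 of the 10 genes were under 60%, against 2.66% of 12067 genes with a mean of at least 1 CPM, whose median was 99.6%. Of the mature dendritic cell genes 10 of 20 were under 60%, and of the T cell genes 9 of 10 were, Cd4 (154%) being the other. So were 3 of 4 natural killer cell genes that reached 1 CPM (median 34.5%) and 3 of 5 such fibroblast and endothelial genes (median 45.7%). None of the 12 macrophage identity genes was under 60%, and their median was 109%. Library 2 was also the lowest of its group for Ccr7, Flt3, Xcr1 and Cd209a in SCCVII and in HPV-negative macrophages. Of those of the 10 genes with a mean of at least 1 CPM, it was lowest for 6 of 8 in SCCVII and 4 of 9 in HPV-negative macrophages. The mature dendritic cell genes at that level did not follow. Library 2 was lowest for 5 of 13 of them in SCCVII (median 97.1% of the other libraries) and 2 of 18 in HPV-negative macrophages (median 124%). Among T cell genes with a mean of at least 1 CPM, it was lowest for 4 of 4 in SCCVII and 9 of 10 in HPV-negative macrophages. Of all genes at that level, 28.5% and 29.9% were lowest in it. What the number shares across groups is not given in the labels. Without HPV-positive library 2, the 8 genes called higher over HPV-negative macrophages kept their calls, with log2 changes of 4.57 for Ccr7 and 3.02 for Itgax, and Zbtb46 joined them. The part of T cells, natural killer cells, stromal cells or mature dendritic cells in this pattern was not tested.

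**Figure D3:**
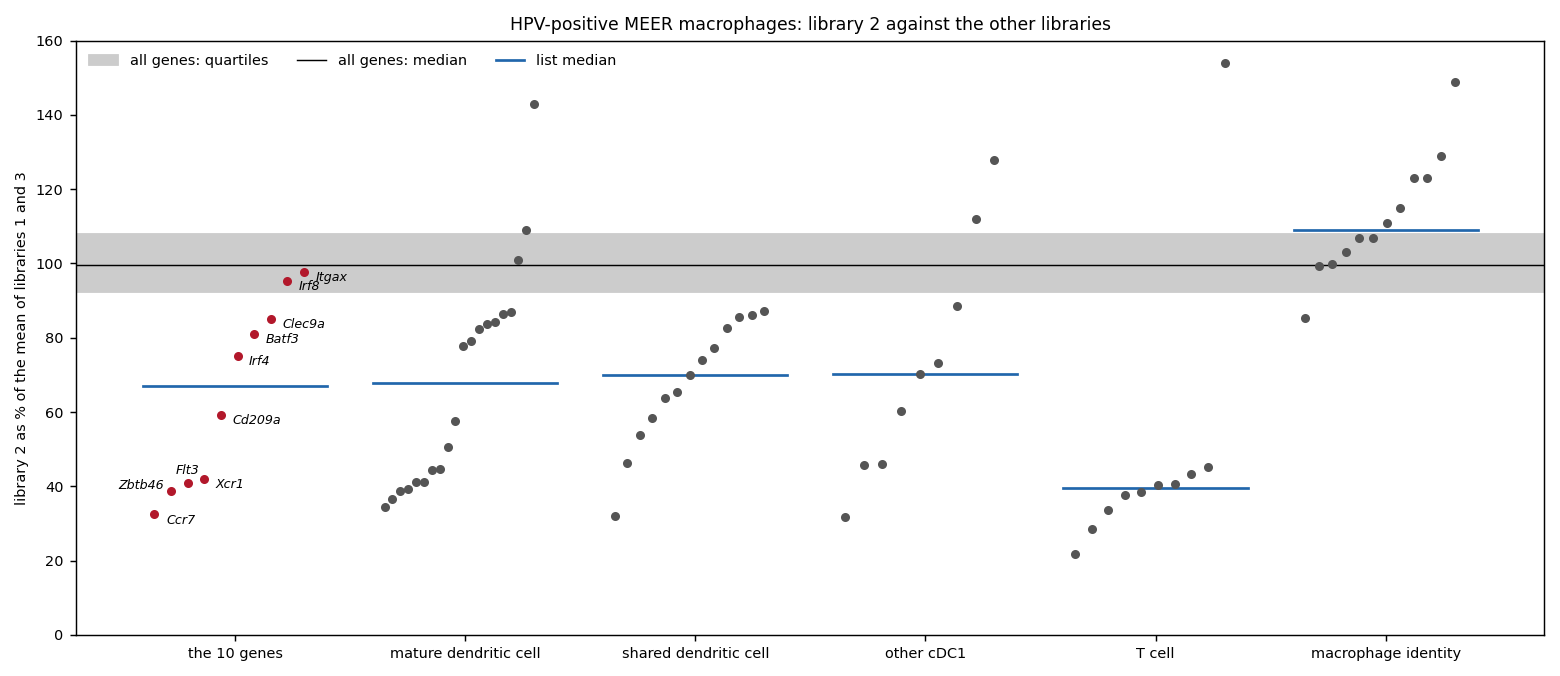
Each point is a gene with a mean of at least 1 CPM in HPV-positive MEER macrophages (the 10 genes in red, all shown), placed at its level in library 2 as a percentage of the mean of libraries 1 and 3; blue bars are list medians and the grey band spans the quartiles of all 12067 genes. Ccr7, Zbtb46, Flt3 and Xcr1 lie with most T cell genes near 40%, while Irf8 and Itgax lie within the band.

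For each of the 10 genes, the nearest genes in profile were taken as those with the smallest root mean square difference of log2(CPM + 0.5), after each gene's mean was removed, over the 9 macrophage libraries and among 11406 genes. Ccr7 was nearest to Ramp3 (0.33), Nr4a3 (0.44) and Cish (0.52). Flt3 was nearest to Rhov (0.21), Slc4a8 (0.22) and Adam11 (0.24), and Zbtb46 to the cytokine gene Ltb (0.21), Map3k14 (0.25) and Vrk1 (0.27). Itgax was nearest to Osm (0.26), Camkk1 (0.28) and Mgl2 (0.30), and Irf8 to Psap (0.07), Sla (0.08) and Cxcl16 (0.08). Irf4 had Ndrg1 (0.24) as its nearest gene, Batf3 had Gbp4 (0.20) and Cd209a had Fcho1 (0.22). Xcr1 had Tmem163 (0.25) and Clec9a had Tm4sf5 (0.19), at levels of 1.4 and 1.82 CPM where counting error is large. The measure describes 9 libraries in 3 groups and has no test.

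In colonies grown from HPV-negative MEER macrophages 8 of the 10 genes were lower than in the macrophages themselves and none was higher, where 28.7% of all 16238 genes tested were called lower, 34.0% higher and 62.7% in either direction. The colonies differed in their content of macrophage RNA: the 12 macrophage identity genes summed to 13135, 1073 and 260 CPM in colonies 1, 2 and 3, against 18433 to 23176 CPM in the macrophages. These colonies are also the group that was deposited in a table of its own, so group and table cannot be told apart. Itgax had 1, 4.04 and 0.151 CPM in the colonies, against 424, 374 and 157 CPM in the macrophages (log2 change -7.55 ± 1.46, edgeR adjusted p = 0.0021). In colony 1 the low Itgax stood beside 1240 CPM of Adgre1, the gene of F4/80, and 558 CPM of Csf1r. Irf8 had 40.4, 0.878 and 0.0905 CPM in the colonies, all below the 220 to 320 CPM of the macrophages, and did not pass at -4.27 ± 1.74 (edgeR adjusted p = 0.056). It passed at -2.67 when colony 1, the only one with over 100 CPM of Ptprc, stood alone and was assumed to vary like the macrophages.

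Zbtb46 had 0.818, 0.936 and 1.18 CPM in the HPV-negative colonies, all below the macrophages (-1.28 ± 0.25, edgeR adjusted p = 0.0024). The cultured HPV-negative line had 0.658 to 1.08 CPM of Zbtb46. Clec9a had 0.273, 1.58 and 0 CPM in the colonies and overlapped with the macrophages (0.35 ± 1.09, edgeR adjusted p = 0.79). Cd209a had no count in any colony library, so that its level was at least 58.3-fold lower than in the macrophages, against a floor of 3 counts over the group. Ccr7 (0.176 to 1.4 CPM) and Batf3 (0.0302 to 2.09 CPM) passed narrowly at -2.94 ± 0.95 and -2.92 ± 1.15 (edgeR adjusted p = 0.023 and 0.050). Both calls were lost when colony 1 stood alone (-1.85 and -1.44) and without colony 2 (-2.44 and -2.39), and leaving out 1 library at a time lost the call of Batf3 in 9 of 11 fits and that of Ccr7 in 3.

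In colonies grown from SCCVII macrophages 2 of the 10 genes were higher and 3 lower than in SCCVII macrophages, where 29.7% and 22.3% of all genes were called higher and lower and 51.9% in either direction. Zbtb46 had 14.7 and 14.8 CPM in the colonies, against 3.22, 1.95 and 2.49 CPM in the macrophages (2.52 ± 0.27, edgeR adjusted p = 0.00010). The 2 colonies lay close together in Zbtb46, while their Ptprc levels were 113 and 3.78 CPM. The cultured SCCVII line had 13.8, 13.2 and 14.9 CPM of Zbtb46, and the 8 fibroblast and endothelial genes summed to 4097 and 2778 CPM in the colonies and to 2660 to 2794 CPM in the line, against 17.9 to 19.2 CPM in the macrophages. The part of tumour or stromal cells in the Zbtb46 level of the colonies was not tested.

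Clec9a had 23.3 and 6.75 CPM in SCCVII colonies, against 0.377, 0.496 and 0.853 CPM in SCCVII macrophages (4.69 ± 1.22, edgeR adjusted p = 0.011), and the call was lost without colony 1, at 3.56 (adjusted p = 0.061). Itgax had 421 and 16.7 CPM in the colonies and 49.9, 35.6 and 50.8 CPM in the macrophages. Colony 1 lay above and colony 2 below all macrophage libraries, and the log2 change of 2.25 ± 1.22 did not pass (edgeR adjusted p = 0.15). It was 3.19 and passed without colony 2, and -1.43 without colony 1; in both fits the lone colony was assumed to vary like the other groups. Xcr1 and Cd209a had no count in either colony, at least 22-fold and 27.8-fold lower than in the macrophages, and Irf4 had 0.508 and 0 CPM, against 10 to 13.8 CPM (-5.63 ± 1.54, edgeR adjusted p = 0.013, lost without colony 2 at 0.051).

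The change from macrophages to colonies was compared between SCCVII and HPV-negative MEER in the same fit, in which 13.5% of all genes were called more positive in SCCVII, 10.6% more negative and 24.1% in either direction. Zbtb46 differed by 3.81 ± 0.37 on the log2 scale (edgeR adjusted p = 0.00044) and Itgax by 9.80 ± 1.86 (edgeR adjusted p = 0.0066), both more positive in SCCVII. The Itgax difference was 6.13 without SCCVII colony 1 (edgeR adjusted p = 0.019), with the lone SCCVII colony assumed to vary like the other groups. Without HPV-negative colony 1, 6 of the 10 genes were called more positive in SCCVII, but calls rose over all genes too. That fit called 6949 genes, against 3921 with all libraries. With all libraries the other genes with counts in the colonies did not pass, Clec9a at 4.33 ± 1.61 (edgeR adjusted p = 0.082) and Flt3 at 3.13 ± 1.25 (0.10) coming nearest.

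**Figure D4:**
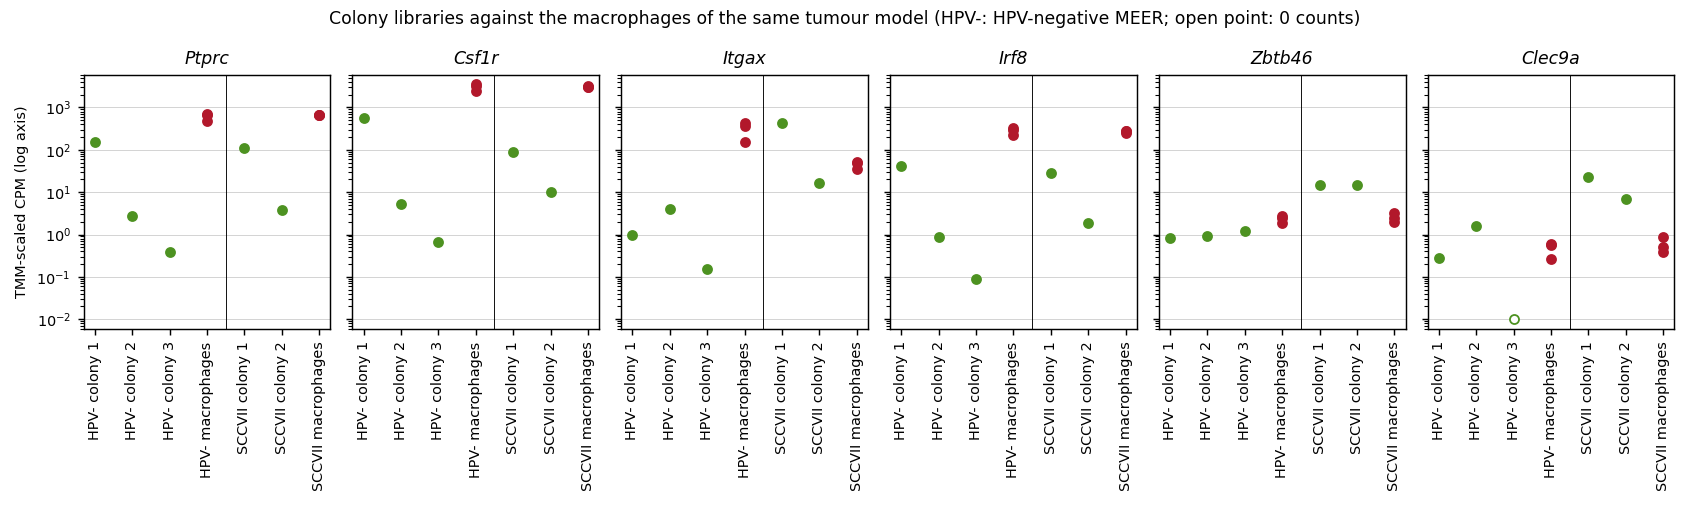
TMM-scaled CPM (log axis) of Ptprc, Csf1r, Itgax, Irf8, Zbtb46 and Clec9a in each colony library (green) beside the macrophages of the same model (red, 3 libraries each). Ptprc falls to 2.72, 0.392 and 3.78 CPM in 3 of the 5 colony libraries, and Zbtb46 lies at 14.7 and 14.8 CPM in both SCCVII colonies.

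Against their cultured tumour lines, macrophages had all 10 genes higher in HPV-negative MEER (38.7% of 15835 genes were called higher, 37.4% lower and 76.1% in either direction) and all 10 higher in HPV-positive MEER (39.6% higher, 39.1% lower and 78.8% in either direction). In SCCVII 8 were higher and 1 lower (37.4% were called higher, 35.5% lower and 73.0% in either direction). Itgax stood at 319 ± 142 CPM in HPV-negative macrophages and 0.121 ± 0.0244 CPM in their line, at 2520 ± 35.4 and 0.0643 ± 0.0098 CPM in HPV-positive macrophages and line, and at 45.4 ± 8.5 and 0.287 ± 0.146 CPM in SCCVII macrophages and line (SD, n = 3 each). Cd209a had no count in any line, and Clec9a had none in either MEER line. HPV-positive macrophages thus had at least 253-fold more Cd209a and at least 158-fold more Clec9a than their line.

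Zbtb46 was the exception in SCCVII, at 2.55 ± 0.636 CPM in the macrophages and 14 ± 0.844 CPM in the line (SD, n = 3 each, log2 change -2.31 ± 0.39, edgeR adjusted p = 5.6e-05). Clec9a stood at 0.377 to 0.853 CPM in SCCVII macrophages and 0.857 to 1.22 CPM in the line and did not pass (-0.72 ± 0.39, edgeR adjusted p = 0.11), but passed without SCCVII macrophage library 3 at -1.12 (adjusted p = 0.035). In HPV-positive MEER the Zbtb46 libraries overlapped, at 2.17 to 6.77 CPM in the macrophages and 0.841 to 2.67 CPM in the line (1.39 ± 0.39, edgeR adjusted p = 0.0041). Batf3 had 15.3 to 19.3 CPM in HPV-positive macrophages, against 1.18 to 1.71 CPM in their line (3.72 ± 0.37, edgeR adjusted p = 1e-07).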

How the data were processed

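Stranded mRNA libraries (TruSeq) were made from RNeasy-purified RNA, per the labels' protocols. The authors deposited RSEM expected counts (reads apportioned among genes by a model, hence sometimes fractional) and TPM (transcript share after division by length) per gene, in a table of 20 libraries and a table of the 3 HPV-negative MEER colonies, per the file headers. The submitters' processing notes name STAR 2.5.3a and RSEM 1.3.0 with FastQC and MultiQC on mm10/GRCm38. No annotation release and no strand setting is given in the sources used here. Of 36793 gene identifiers 35243 (95.8%) matched a symbol in GENCODE M21 or in a further reference list of gene names. Of all count values 13.1% were not whole (tolerance 1e-09), and counts were rounded.

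Tests were edgeR 4.0.16 quasi-likelihood F tests in R 4.3.3, with TMM scaling, filterByExpr (minimum count 10, minimum total 15) and Benjamini-Hochberg adjustment over all genes tested at a threshold of 0.05. Separate fits covered the 9 macrophage libraries, the 11 colony and matching macrophage libraries, and the 18 macrophage and line libraries. A standard error is the log2 change divided by the square root of F. The scripts were tested on simulated counts. CPM were scaled by TMM over all 23 libraries, and TPM were used only to rank genes within a group. Alternatives were DESeq2 1.42.0, size factors by relative log expression, no filter, all 23 libraries, only the groups compared, the replicate number as a block, each library left out and, chosen after the data were seen, colony libraries with over 100 CPM of Ptprc.

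Replicates are separate samples per the labels. The 10 genes and the gene lists were chosen with earlier results of these data known. All 10 are named throughout; from each list, the 3 genes of highest mean CPM in macrophages and the 2 largest called rises and falls per comparison could be named, and Ptprc, Siglech, Ccl19 and Ccl21a were named beside that rule. Floors of 3 counts cover counting error only. Flt3l was not analysed here.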

Additional observations from a re-analysis of the deposited data

Results flagged for a closer look

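The change of Zbtb46 from macrophages to colonies differed between the models by 3.81 on the log2 scale, SCCVII minus HPV-negative MEER, in the test of the difference itself (edgeR adjusted p = 0.00044). Leaving out 1 library at a time gave 3.64 to 4.01. On average Zbtb46 stood at 14.7 CPM in the SCCVII colonies and 14 CPM in the cultured SCCVII line. In the HPV-negative colonies and their line it stood at 0.977 and 0.881 CPM. The part of tumour cells in the difference was not tested.

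The change of Itgax from macrophages to colonies differed by 9.80 on the log2 scale, SCCVII minus HPV-negative MEER (edgeR adjusted p = 0.0066). Leaving out 1 library at a time gave 6.13 (without SCCVII colony 1) to 11.2 (without HPV-negative colony 2). Ptprc ranged over 113 and 3.78 CPM in the SCCVII colonies and over 149, 2.72 and 0.392 CPM in the HPV-negative colonies, and its part in the difference was not tested.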

How the results depend on the processing

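The results for HPV-positive over HPV-negative macrophages and for macrophages over their lines kept their direction under every alternative run, with losses of call only in a fit over all 23 libraries. That fit, whose spread includes the colonies, called 3708 genes for HPV-positive over HPV-negative and 2944 for SCCVII over HPV-negative, with 0 of the 10 genes higher in the second, and lost the calls of Batf3 (adjusted p = 0.17) and Irf8 (0.60) for HPV-positive over HPV-negative and of Batf3 for SCCVII macrophages over their line (0.089). DESeq2 called 5904 genes in the difference between the colony changes and 4 of the 10 genes as more positive in SCCVII, and the fit over all 23 libraries called 5. Levels scaled by library total alone moved by more than the spread between replicates in 6 of 80 cases, among them Itgax in HPV-positive macrophages, at 2031 CPM.

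Over all genes the deviations of same-numbered samples correlated at -0.13 to 0.15, so the numbers were not taken as a pairing, although library 2 was the lowest of all 3 macrophage groups for Ccr7, Flt3, Xcr1 and Cd209a. With the replicate number as a block, the block fit called 1 of the 10 genes (Xcr1, -1.2) lower in HPV-positive than in HPV-negative macrophages and 6 lower in SCCVII than in HPV-negative macrophages, where Zbtb46 (-0.08), Clec9a (-0.28) and Cd209a (0.23), none of them called, changed sign. In the SCCVII colonies the block left 1 gene higher (Clec9a had an adjusted p of 0.089), with changed signs of Ccr7 (0.28) and Batf3 (-0.69). In the difference between the colony changes it called 1457 genes and 1 of the 10, with Itgax at 9.25 (adjusted p = 0.083), and Irf8 changed sign (-0.25).

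With only the colony libraries over 100 CPM of Ptprc, a choice made after the data were seen, 5 genes were lower in SCCVII colonies and 1 was more negative in the difference between the changes, and Clec9a in HPV-negative colonies (-0.66) and, in the difference, Ccr7 (-0.86) and Irf8 (-0.61) changed sign.

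Leaving out 1 library at a time changed the sign of log2 changes that had not passed. The ranges for SCCVII over HPV-negative macrophages were -0.09 to 0.27 for Zbtb46, -0.12 to 0.50 for Clec9a, -0.21 to 0.03 for Irf8 and -0.39 to 0.20 for Cd209a. Xcr1 ranged over -0.42 to 0.42 for SCCVII over HPV-positive macrophages, and Clec9a over -1.53 to 0.99 for HPV-negative colonies over macrophages. In SCCVII colonies over macrophages the ranges were -2.71 to 0.84 for Ccr7, -1.46 to 0.05 for Flt3, -1.43 to 3.19 for Itgax and -1.21 to 0.80 for Batf3, with 1 to 3 genes called higher. In the difference between the colony changes 2535 to 6949 genes were called (6949 without HPV-negative colony 1, 2535 without SCCVII macrophage library 2, with counts over 1.5 times lower also without library 1 or 3 of that group) and 2 to 6 of the 10 as more positive in SCCVII, and the ranges were -7.45 to 2.12 for Irf4 and -2.84 to 4.94 for Irf8. Between 1 and 2 genes were lower in SCCVII macrophages than in their line. The cause of these changes was not tested. Depth limits Xcr1, Clec9a, Flt3 and Cd209a most, whose means in SCCVII and HPV-negative macrophages were under 2 CPM.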

Other observations

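Receptors of the growth factor GM-CSF, which acts on macrophages and on dendritic cells, were higher in HPV-positive than in HPV-negative MEER macrophages. Csf2rb stood at 1771 against 460 CPM (log2 change 1.97 ± 0.12, edgeR adjusted p = 2.8e-06) and Csf2ra at 598 against 322 CPM (0.92 ± 0.07, 8.5e-06). In SCCVII macrophages Csf2rb stood at 247 CPM, lower than in HPV-negative macrophages (-0.92 ± 0.12, edgeR adjusted p = 0.0003), and Csf2ra at 323 CPM (-0.02 ± 0.07, 0.87). The gene of the growth factor itself, Csf2, was at 0.135, 0.0114 and 0.0834 CPM on average in HPV-positive, SCCVII and HPV-negative macrophages. Siglecf, a lectin of eosinophils and some macrophages, stood at 54.1 CPM in HPV-positive and 1.33 CPM in HPV-negative macrophages (5.38 ± 0.28, edgeR adjusted p = 1.2e-06), while the eosinophil genes Epx and Il5ra had no count in either group and Ccr3 fell to 0.249 CPM in HPV-positive macrophages, against 2.89 CPM in HPV-negative ones (-3.47 ± 0.39, 9.2e-05).

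In SCCVII colonies some genes of the mature dendritic cell list rose and others fell, at shares near those of all genes (29.7% higher and 22.3% lower). Cacnb3 stood at 238 CPM in the colonies and 2.62 CPM in the macrophages (6.50 ± 0.33, edgeR adjusted p = 3.3e-06) and the actin-bundling gene Fscn1 at 105 and 7.76 CPM (3.75 ± 0.33, 3.6e-05), whereas the costimulatory gene Cd86 fell to 0.117 CPM, against 47.8 CPM in the macrophages (-8.78 ± 1.70, 0.0024). Of the 20 genes 5 rose and 4 fell, with a median log2 change of -1.15, against 0.07 for all genes. The cultured SCCVII line had 92.1 CPM of Cacnb3 and 230 CPM of Fscn1, and the fibroblast and endothelial genes summed to 4097 and 2778 CPM in these colonies. The part of tumour or stromal cells in these levels was not tested.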
